A study of Mus musculus with 33 samples.

Results

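The *Notch* receptors, ligands and targets are here a set of 10 genes, chosen by symbol: the receptors *Notch1*, *Notch2* and *Notch3*, the ligands *Jag1*, *Jag2* and *Dll1*, and the response and modulator genes *Hes1*, *Hes6*, *Nrarp* and *Lfng*. Each symbol matched exactly 1 of the 32285 gene identifiers in the count files, and all 10 passed the filter on low counts that left 13606 genes for testing. The study asked how colorectal tumour cells raised in mini-colons, which are tube-shaped colon epithelia grown on a chip, compare with tumour cells raised in conventional systems. RNA was taken after 3 days of organoid culture, the last step of which was 24 h in a basal medium that lacked growth factors. It was read by QuantSeq, a method that counts transcripts from their 3′ ends. In such bulk RNA, fewer cells of a type and less RNA per cell cannot be told apart.

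The 33 libraries came from mouse colon epithelial organoids of 8 lines. In vivo AKP (n = 6) are organoids from colon tumours of Cdx2-creERT2 mice whose Cre-dependent alleles include *Apc* fl/fl and *Trp53* fl/fl, in which a single injection of 18 mg/kg tamoxifen at the age of 8 to 10 weeks switched on Cre in *Cdx2*-expressing cells and tumours grew for 6 weeks. Mini-colon AKP #v, #iv, #iii, #ii and #i (n = 3 each) are organoid lines from tumour-bearing mini-colons made of colon cells with the same Cre-dependent alleles. In those cells doxycycline and blue light had switched on OptoCre, a light-inducible Cre carried by lentivirus. Organoid AKP (n = 6) were mutated by the same OptoCre system as ordinary organoids and passaged in parallel. Control organoids (n = 6) carry the same alleles but were not induced. All OptoCre lines are lentivirally transduced, so In vivo AKP differs from them in the Cre system as well as in where the tumour arose. The methods of the study describe the bulk RNA samples as independent sets, each value from a separate culture. The labels name no separate mice or derivations within a line, and the p-values rest on the variation among cultures of each line.

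Notch receptors are cut when a Delta-like or Jagged ligand on a neighbouring cell pulls on them, and the released intracellular part joins the DNA-binding protein RBPJ to switch on target genes. In the intestine this signal keeps crypt progenitors dividing and steers cells towards the absorptive fate, because its target HES1 represses *Atoh1*, the factor that starts secretory differentiation. Cells that receive less of it become goblet, Paneth-like or enteroendocrine cells.

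*Hes1*, *Lfng* and *Nrarp* are known targets of this signal, so the 250 bases before the canonical start of each were searched for gtgggaa, a well-known RBPJ-binding sequence, on both strands. The *Hes1* and *Lfng* windows each held 1 copy, in the direction of the gene, and the windows of the other 8 members held none. Of 21770 protein-coding genes, 5.48% held this sequence in a window of the same length. The windows of *Hes1* (chr16:29883877-29884126, plus strand), *Lfng* (chr5:140592825-140593074, plus strand) and *Nrarp* (chr2:25070520-25070769, plus strand) are shown because the 3 targets moved apart in the comparisons that follow. They are read 5′ to 3′ from GRCm39 with starts from GENCODE M39, and capitals mark the searched sequence. It lies 50 to 44 bases before the *Hes1* start and 88 to 82 bases before the *Lfng* start. The canonical *Hes1* start lies inside the annotated span of the gene, because another transcript begins farther upstream. A match in these letters is a description of the window and not a measured binding site.
Hes1: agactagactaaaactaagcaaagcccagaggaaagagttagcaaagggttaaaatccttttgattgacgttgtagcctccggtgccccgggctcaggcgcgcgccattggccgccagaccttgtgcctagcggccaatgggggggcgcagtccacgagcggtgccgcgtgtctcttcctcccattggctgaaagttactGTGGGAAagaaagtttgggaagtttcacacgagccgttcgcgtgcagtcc
Lfng: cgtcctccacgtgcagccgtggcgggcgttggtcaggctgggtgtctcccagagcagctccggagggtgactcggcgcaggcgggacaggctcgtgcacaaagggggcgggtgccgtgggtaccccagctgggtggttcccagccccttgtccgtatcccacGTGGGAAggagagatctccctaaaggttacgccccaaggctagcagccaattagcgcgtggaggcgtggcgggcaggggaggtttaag
Nrarp: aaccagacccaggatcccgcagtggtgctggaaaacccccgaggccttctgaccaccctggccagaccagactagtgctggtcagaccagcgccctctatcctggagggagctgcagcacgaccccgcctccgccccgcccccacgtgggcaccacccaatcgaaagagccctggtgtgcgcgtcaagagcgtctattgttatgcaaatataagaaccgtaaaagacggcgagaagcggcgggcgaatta

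Total counts ranged from 2438672 to 8256526 per library. The code of each library holds a letter, E or F, whose meaning the labels do not give. In vivo AKP, Organoid AKP and Control each have 3 libraries of both letters, whereas #i, #ii and #iii are all E and #iv and #v are all F. The median total was 5916668 in the F libraries and 3361206 in the E libraries. Letter F was higher than letter E, by the test defined in the next paragraph, for 7 of the 10 members in In vivo AKP (47.2% of all genes differed in either direction), 5 in Organoid AKP (30.4%) and 2 in Control (22.2%), and lower for 0. For this reason comparisons are given over all libraries and within each letter. The shares of all genes are not split by direction, so the direction of the members is not set against a background. *Trp53* was at 19.2 to 34.2 CPM in In vivo AKP, 1.97 to 11.7 CPM in the mini-colon lines and 1.07 to 3.78 CPM in Organoid AKP, against 14.4 to 19.1 CPM in Control. The sources used here do not place its 3′ tag inside the floxed part, so this level does not check the deletion. *Cdkn1a*, a p53 target, was at 26.6 to 319 CPM in the AKP libraries and 2214 to 2456 CPM in Control. The 10 epithelial markers summed to 3078 to 3742 CPM in the AKP libraries and 10480 to 11650 CPM in Control, although *Cdx1* was at 0 in 19 libraries. Of 12 fibroblast and mural cell markers, which matter for *Notch3*, 11 stayed below 2 CPM in every library, and the list summed to 0.534 to 1.34 CPM in In vivo AKP, 0 to 1.97 CPM in the mini-colon lines, 0.27 to 1.40 CPM in Organoid AKP and 0.469 to 4.60 CPM in Control. Of 9 endothelial markers 6 stayed below 2 CPM in every library, *Cldn5* was at 0 in all 33, and the list reached 30.6 CPM in In vivo AKP, mostly through *Flt1*, which reached 25.1 CPM. The immune markers *Cd3e* and *Cd79a* were at 0 in 31 and 32 libraries, and *Cd68* was the only marker of its list of 7 above 2 CPM.

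Levels are CPM, counts divided by the library's total after scaling by the trimmed mean of M-values (TMM) and set to a total of 1000000, and a member was called when its p from the edgeR quasi-likelihood test, adjusted over all 13606 genes, was under 0.05. An F test over the 8 lines called 9 of the 10 members, all but *Hes1* (adjusted p = 0.077), while it called 88.7% of all genes, so that varying among the lines did not set the members apart. That miss of *Hes1* depended on the setting. The same test called *Hes1* within letter E (adjusted p = 8.2e-07), within letter F (1.2e-11) and with the letter in the model (0.0017). DESeq2 over all libraries also called it (adjusted p = 0.023). Among the 5 mini-colon lines *Notch1*, *Notch2*, *Jag1*, *Hes6*, *Nrarp* and *Lfng* were called, 6 of 10 against 46.7% of all genes. Since letter and line are joined there, the test was repeated within letters. It called 2 members among the E lines, against 24.8% of all genes, and 3 between the F lines, against 18.4%.

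**Figure D1:**
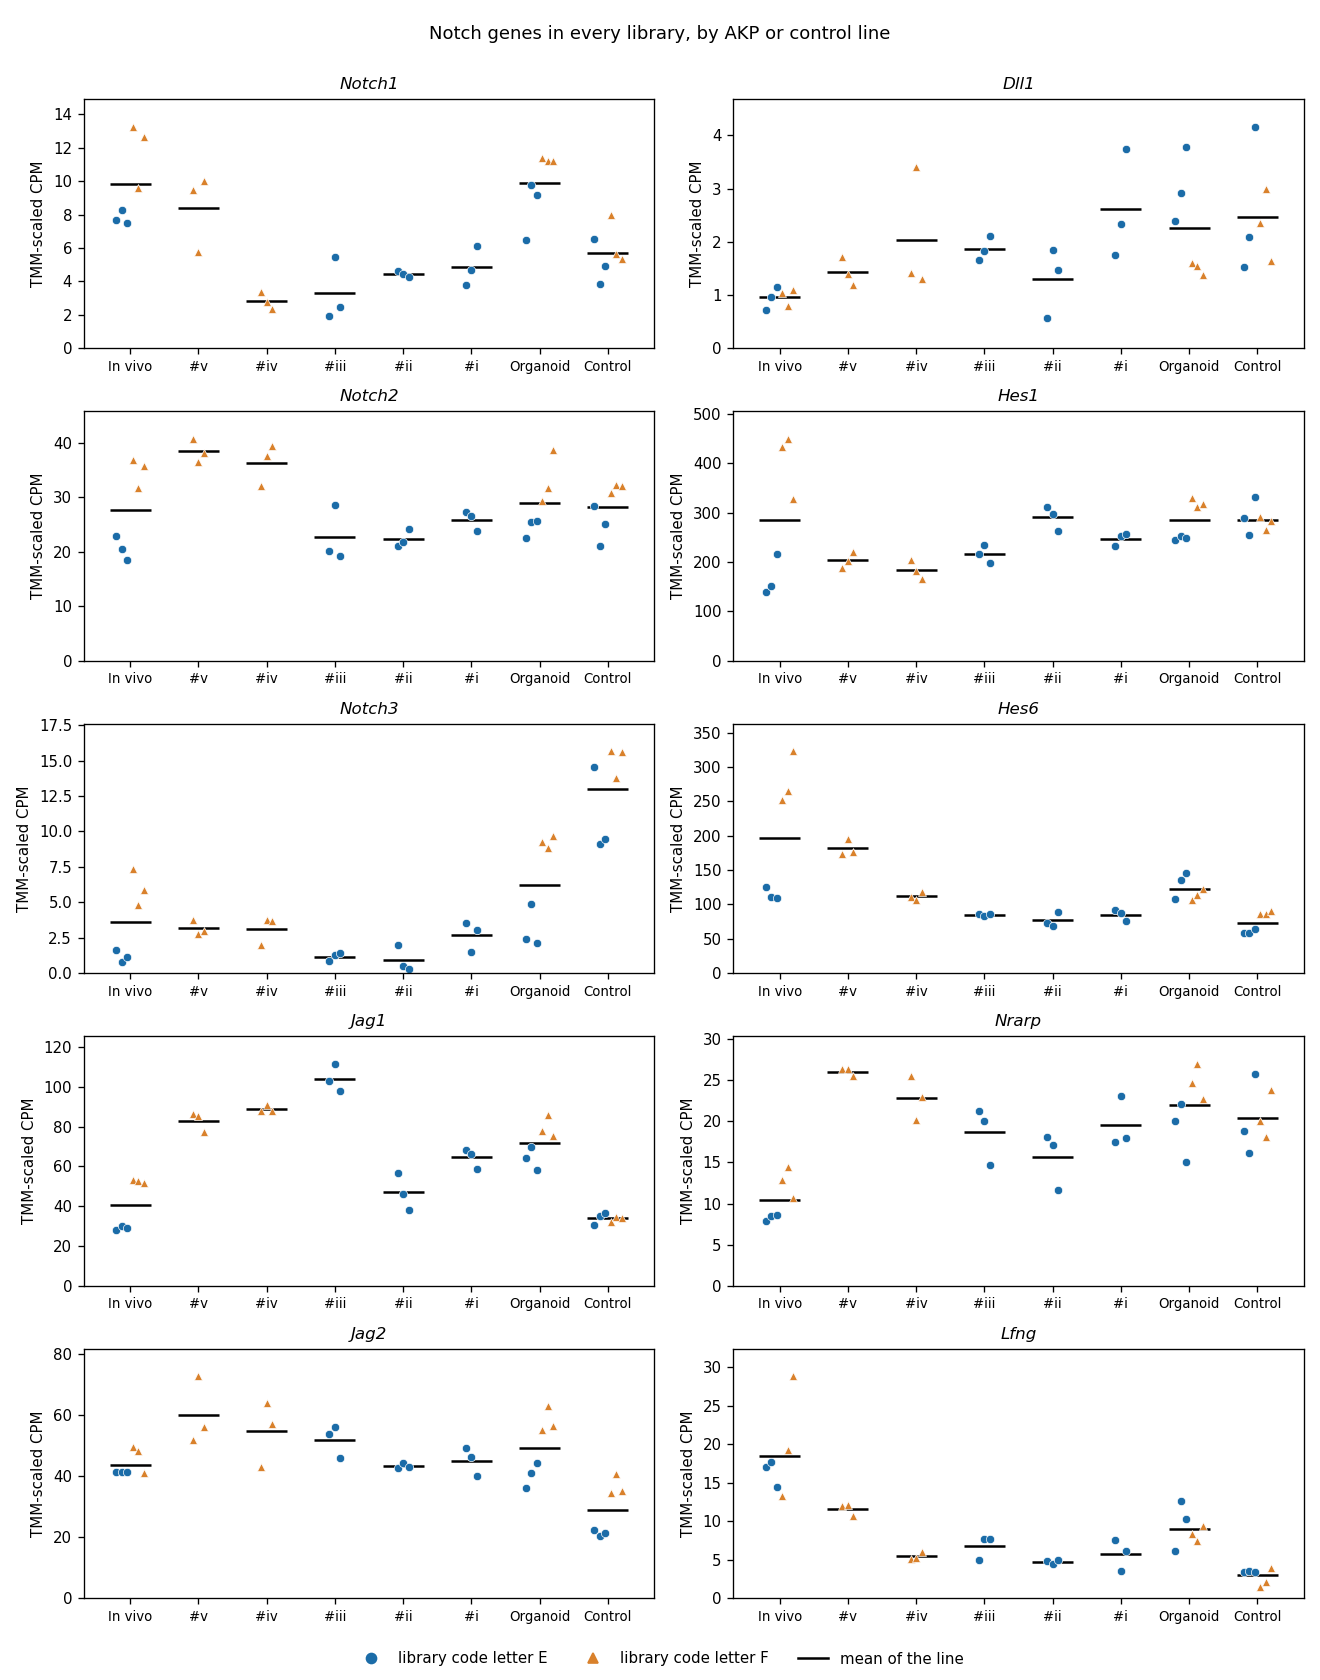
TMM-scaled CPM (y axis, from 0) of each Notch gene in every library, by line (x axis), with circles for letter E, triangles for letter F and a bar at the line mean. *Lfng* ran between 13.3 and 28.8 CPM in In vivo AKP and 1.41 and 3.97 CPM in Control, and in In vivo AKP the F libraries of *Hes1* and *Hes6* all lay above the E libraries.

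Organoid AKP against Control sets organoids with the AKP mutations beside non-induced ones, after 24 h in the basal medium. The paper reports no growth of healthy organoids in that medium. For expanding tumour organoids the paper used a medium lacking WNT3A, R-spondin, noggin, EGF and nicotinamide. The medium of each line before the 24 h is not stated separately, so it may have differed. Effects of the mutations, of any earlier medium and of the response to the basal medium cannot be told apart here. Both *Jagged* ligands, *Notch1*, *Hes6* and *Lfng* rose and *Notch3* fell, so that 6 of 10 members were called, 5 higher and 1 lower. In this comparison 71.0% of all genes were called, 37.3% higher and 33.6% lower, so the members' share is near the background. The members' median log2 fold change was 0.41, beside 0.06 over all genes. Within the letters, 7 of 10 were called in E, against 65.6% of all genes, and 6 of 10 in F, against 70.8%. All 6 calls kept their direction and stayed under the threshold in each letter. The summed epithelial markers also differed between these lines, at 3269 to 3742 CPM in Organoid AKP and 10480 to 11650 CPM in Control, and their part in the differences was not tested.

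In vivo AKP against Organoid AKP asks how tumour cells that arose in the mouse differ from cells mutated in culture. *Jag1*, *Dll1* and *Nrarp* fell in In vivo AKP and *Hes6* and *Lfng* rose, 5 of 10 members, while 34.4% of all genes were called, 17.4% higher and 17% lower. The members' median log2 fold change was -0.14, beside 0.00 over all genes. Within letter E 6 of 10 were called, against 27.2% of all genes, and within letter F 7 of 10, against 49.2%. *Jag1*, *Nrarp* and *Lfng* were called in the same direction in each letter. So was *Notch3*, lower in In vivo AKP, though it was not called over all libraries. *Hes1* was called in opposite directions, *Hes6* was called in F and not in E, and *Dll1* in E and not in F. A test of the difference itself called *Hes1*, *Hes6* and *Jag1*, 3 of 10 members, against 20.8% of all genes. In Organoid AKP against Control it called *Hes6* and *Notch3*, 2 of 10, against 13.9%.

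**Figure D2:**
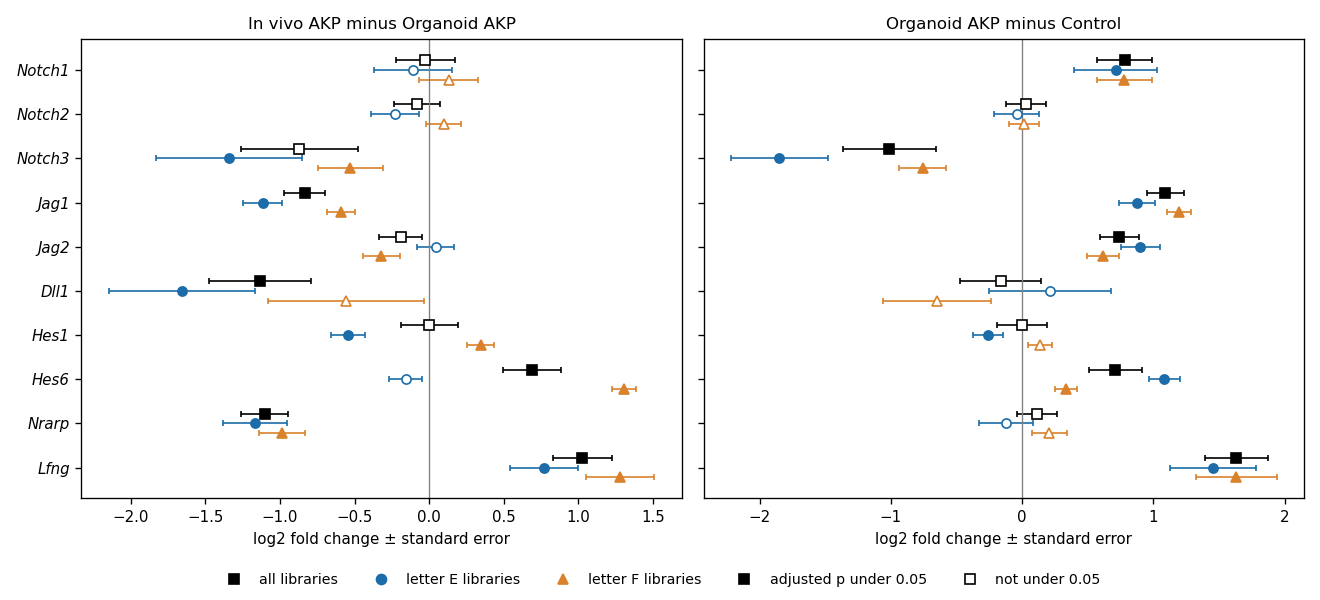
Log2 fold change (x axis) with its standard error for each Notch gene in In vivo AKP minus Organoid AKP and in Organoid AKP minus Control, over all libraries and within each letter, with filled symbols for an adjusted p under 0.05. In In vivo AKP minus Organoid AKP, *Hes1* lay at 0.35 in letter F and -0.54 in letter E, and *Nrarp* at -0.99 in F and -1.17 in E.

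The mini-colon lines against Organoid AKP ask whether lines that grew as mini-colon tumours differ from cells mutated as organoids, and all 5 comparisons share the Organoid AKP libraries. *Notch1* was lower in 4 of the lines, and *Notch3* in #iii and #ii. In #v 0 members were called, while 4 had an unadjusted p under 0.05, DESeq2 and limma-voom also called 0, and 10.6% of all genes were called, 5.11% higher and 5.48% lower. *Notch1* was the only member called in #iv, against 4.90% of all genes (2.35% lower), and in #i, against 7.15% (4.05% lower). In #iii *Notch1* and *Notch3* were lower and *Jag1* higher, 3 of 10 against 16.2% of all genes, 7.45% higher and 8.79% lower. In #ii *Notch1*, *Notch3*, *Jag1*, *Nrarp* and *Lfng* were lower, 5 of 10 against 24.6% of all genes (12.7% lower).

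**Figure D3:**
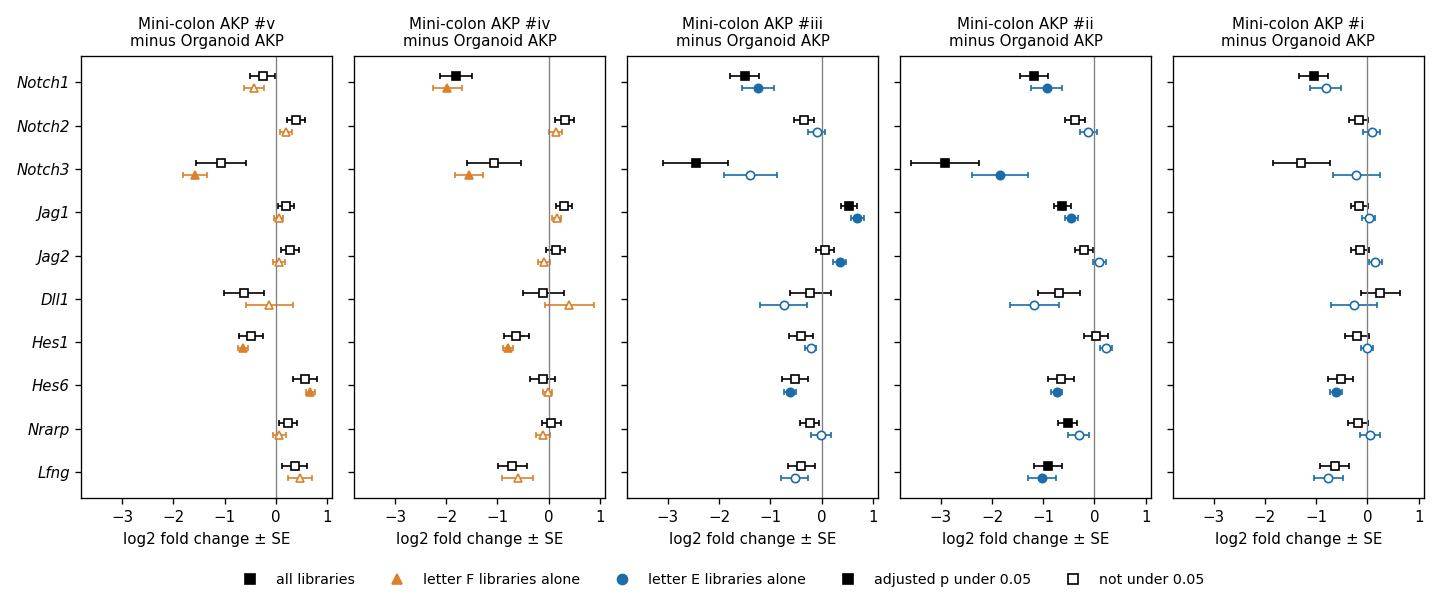
Log2 fold change (x axis) with its standard error for each Notch gene in each mini-colon line minus Organoid AKP, over all libraries (squares) and within the letter of that line (circles for E, triangles for F), with filled symbols for an adjusted p under 0.05. *Notch1* lay at -1.81 in #iv and -0.26 in #v over all libraries.

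Within the letter that each line shares with 3 Organoid AKP libraries, the calls were partly different. Letter F called *Notch3*, *Hes1* and *Hes6* in #v, 3 of 10 against 27.2% of all genes, and *Notch1*, *Notch3* and *Hes1* in #iv, 3 of 10 against 12.7%. Letter E called *Notch1*, *Jag1*, *Jag2* and *Hes6* in #iii, 4 of 10 against 15.6%. In #ii it called *Notch1*, *Notch3*, *Jag1*, *Hes6* and *Lfng*, 5 of 10 against 22.9%. In #i it called *Hes6* alone, 1 of 10 against 7.70%.

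Mini-colon AKP #v was also set against #i and #iv, since the study compared #v with #i as the mini-colon lines that scored most and least like In vivo AKP, and #iv is the other mini-colon line with letter F. *Hes6* and *Lfng* were higher in #v than in #i, 2 of 10 members against 24.5% of all genes (12.5% higher). All #v libraries are F and all #i libraries are E, so line and letter cannot be told apart there. With the letter as a term in the model 0 of 10 were called (1264 genes in all). That term rests on In vivo AKP, Organoid AKP and Control, the lines with both letters, and takes the letter difference as equal in every line. For *Hes6* it was not equal among them, so this count cannot separate line from letter. Against #iv, which is also F, *Notch1* and *Lfng* were higher in #v, 2 of 10 against 3.15% of all genes (1.47% higher and 1.68% lower).

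Over all libraries, *Notch1* was called lower than in Organoid AKP in 4 mini-colon lines and *Notch3* in 2. With the letter in the model *Notch1* was called lower in 3 lines (#iv, #iii and #ii) and *Notch3* in 4 (#v, #iv, #iii and #ii, adjusted p 0.0015 to 0.025). That term takes the letter difference as equal in every line. For *Notch3* it was unequal between Organoid AKP and Control, so these *Notch3* calls cannot separate line from letter. Within the letter of each line *Notch3* was called in #v, #iv and #ii and not in #iii (adjusted p = 0.063). Means of *Notch1* were 9.82 ± 2.55 CPM in In vivo AKP, 8.40 ± 2.32 in #v, 2.84 ± 0.512 in #iv, 3.29 ± 1.92 in #iii, 4.44 ± 0.169 in #ii, 4.87 ± 1.18 in #i, 9.87 ± 1.90 in Organoid AKP and 5.71 ± 1.42 in Control (SD, n = 6 or 3). The lines ran from Organoid AKP through In vivo AKP, #v, Control, #i, #ii and #iii down to #iv, and no adjacent pair differed beyond its spread (adjusted p 0.067 to 0.95). *Notch1* lies on chr2:26347915-26406675 on the minus strand, and its counts were low, 7 to 90 per library.

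Organoid AKP libraries held 6.47 to 11.4 CPM of *Notch1* with a median of 10.47, and Control libraries 3.85 to 7.98 with a median of 5.49. Only the lowest Organoid AKP library fell within the Control range. The log2 fold change was 0.78 ± 0.21 (SE, adjusted p = 0.0014), 0.71 within letter E and 0.78 within letter F. In vivo AKP libraries held 7.49 to 13.3 CPM with a median of 8.93, and 2 of the 6 lay above the highest Organoid AKP library (log2 fold change -0.03 ± 0.20, adjusted p = 0.95).

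The 3 libraries of #iv held 3.37, 2.79 and 2.35 CPM of *Notch1*, all below the lowest Organoid AKP library, and the log2 fold change was -1.81 ± 0.31 (adjusted p = 0.00020). It was -1.98 ± 0.28 within letter F (adjusted p = 4.2e-07). In #v the values were 9.45, 5.74 and 10.003 CPM, and 2 of the 3 lay inside the Organoid AKP range. Against #iv, *Notch1* was 2.94-fold higher in #v (log2 fold change 1.55 ± 0.34, adjusted p = 0.0077), with no overlap between the libraries. Without replicate 3 of #iv or of #v that p was 0.057 and 0.059.

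In #iii *Notch1* was at 1.93, 5.49 and 2.46 CPM and in #ii at 4.60, 4.47 and 4.26 CPM, below every Organoid AKP library. The log2 fold changes against Organoid AKP were -1.50 ± 0.29 in #iii (adjusted p = 0.00055) and -1.17 ± 0.28 in #ii (adjusted p = 0.0023), and within letter E -1.25 and -0.94, both called. In #i the values were 3.80, 4.67 and 6.13 CPM. The log2 fold change of -1.05 ± 0.29 there (adjusted p = 0.024) was -0.81 within letter E and no longer called (adjusted p = 0.097). Leaving out replicate 1 or 2 of #i or replicate 5 of Organoid AKP also took it past the threshold (adjusted p 0.055 to 0.12).

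*Notch2*, on chr3:97920800-98057677 on the plus strand, varied least among the receptors. Means were 27.7 ± 8.07 CPM in In vivo AKP, 38.4 ± 2.14 in #v, 36.4 ± 3.85 in #iv, 22.7 ± 5.10 in #iii, 22.3 ± 1.62 in #ii, 25.9 ± 1.79 in #i, 28.9 ± 5.80 in Organoid AKP and 28.3 ± 4.48 in Control (SD, n = 6 or 3). None of the 9 comparisons over all libraries and no pair of neighbours in the order of means was called, and the F test over the 8 lines (adjusted p = 0.0085) lost its call with the letter in the model (adjusted p = 0.53). The 6 libraries of #v and #iv lay between 32.0 and 40.7 CPM and the 9 of #iii, #ii and #i between 19.3 and 28.5, without overlap.

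That split of *Notch2* runs with the letter. Within In vivo AKP the F libraries held 31.6 to 36.9 CPM and the E libraries 18.4 to 22.8 (log2 difference F minus E 0.77 ± 0.14, adjusted p = 4.3e-06). In Organoid AKP they held 29.4 to 38.7 and 22.5 to 25.6 CPM (0.44 ± 0.14, adjusted p = 0.014). Within letter F the log2 fold change of #v against Organoid AKP was 0.20 ± 0.11 (adjusted p = 0.19).

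*Notch3*, on chr17:32339794-32385893 on the minus strand, was highest in Control. Means were 3.60 ± 2.79 CPM in In vivo AKP, 3.16 ± 0.494 in #v, 3.12 ± 0.996 in #iv, 1.17 ± 0.302 in #iii, 0.955 ± 0.920 in #ii, 2.68 ± 1.08 in #i, 6.19 ± 3.49 in Organoid AKP and 13.0 ± 2.98 in Control (SD, n = 6 or 3). In the order of means, Control and Organoid AKP differed (adjusted p = 0.012) and no pair below them did. Counts were low, 2 to 114 per library.

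Organoid AKP libraries held 2.16 to 9.67 CPM of *Notch3* with a median of 6.85, and Control libraries 9.10 to 15.6 with a median of 14.2. The log2 fold change was -1.01 ± 0.35 (adjusted p = 0.012). It was -0.76 ± 0.18 within letter F and -1.85 ± 0.37 within letter E, and the difference of F minus E was itself called (1.12 ± 0.40, adjusted p = 0.047). The F libraries of Organoid AKP held 8.81 to 9.67 CPM and its E libraries 2.16 to 4.88.

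Within In vivo AKP *Notch3* was likewise higher in letter F. The F libraries of In vivo AKP held 4.80 to 7.37 CPM and its E libraries 0.769 to 1.60 (log2 difference 2.39 ± 0.36, adjusted p = 1.4e-07). The test of whether the letter difference was unequal between In vivo AKP and Organoid AKP did not call *Notch3*. Over all libraries In vivo AKP and Organoid AKP overlapped and the log2 fold change of -0.87 ± 0.39 was not called (adjusted p = 0.087). Within each letter the ranges did not overlap, and *Notch3* was lower in In vivo AKP in E (-1.34 ± 0.49, adjusted p = 0.034) and in F (-0.53 ± 0.22, adjusted p = 0.040). In the model with the letter as a term, the log2 fold change was -0.81 ± 0.27 (adjusted p = 0.014).

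Over all libraries *Notch3* was called lower in #iii and #ii. The 3 libraries of #ii held 2.01, 0.526 and 0.328 CPM (log2 fold change against Organoid AKP -2.91 ± 0.66, adjusted p = 0.0017), and within letter E the fall was also called (-1.85 ± 0.55, adjusted p = 0.011). Those of #iii held 0.829, 1.28 and 1.40 CPM (-2.46 ± 0.63, adjusted p = 0.0087), but within letter E the adjusted p was 0.063. Over all libraries #v (3.72, 2.79 and 2.98 CPM) and #iv (1.97, 3.72 and 3.66 CPM) were not called, with log2 fold changes of -1.07 in each. Set against the 3 Organoid AKP libraries of their own letter F, which held 8.81 to 9.67 CPM, both fell on the log2 scale, by 1.58 ± 0.24 in #v (adjusted p = 5.8e-07) and by 1.56 ± 0.27 in #iv (adjusted p = 2.2e-05). In #i the values were 3.51, 1.46 and 3.06 CPM, which overlapped the E libraries of Organoid AKP, and *Notch3* was not called (-1.29 over all libraries, adjusted p = 0.14).

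Of the ligands, *Jag1* had the largest F over the 8 lines of all members. It lies on chr2:136923373-136958693 on the minus strand and encodes a membrane-bound Jagged ligand. Means were 40.7 ± 12.8 CPM in In vivo AKP, 83.0 ± 5.002 in #v, 88.8 ± 1.84 in #iv, 104 ± 6.93 in #iii, 46.9 ± 9.31 in #ii, 64.5 ± 5.003 in #i, 71.8 ± 10.03 in Organoid AKP and 33.8 ± 2.32 in Control (SD, n = 6 or 3). The order ran #iii, #iv, #v, Organoid AKP, #i, #ii, In vivo AKP and Control, and no adjacent pair was called (adjusted p 0.10 to 0.88).

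Organoid AKP libraries held 58.0 to 85.9 CPM of *Jag1* with a median of 72.4, and Control libraries 30.3 to 36.8 with a median of 34.4. The ranges did not overlap, and *Jag1* was 2.13-fold higher in Organoid AKP (log2 fold change 1.09 ± 0.14, adjusted p = 1.7e-08). In vivo AKP libraries held 28.1 to 52.9 CPM with a median of 40.8, all below the lowest Organoid AKP library, and the log2 fold change against Organoid AKP was -0.84 ± 0.14 (adjusted p = 8.4e-06). The value was -0.59 ± 0.09 within letter F and -1.12 ± 0.13 within letter E, and this difference of F minus E was called (0.53 ± 0.16, adjusted p = 0.0099). In vivo AKP F libraries held 51.7 to 52.9 CPM and its E libraries 28.1 to 29.8.

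*Jag1* separated the mini-colon lines more than any other ligand did by F (adjusted p = 0.00015). In #iii it was at 103, 112 and 97.9 CPM, above every Organoid AKP library, and its log2 fold change was 0.53 ± 0.16 (adjusted p = 0.022), or 0.70 ± 0.12 within letter E (adjusted p = 2.8e-05). Leaving out any 1 of the 3 #iii libraries took the value over all libraries past the threshold (adjusted p 0.051 to 0.095). In #ii it was at 56.6, 46.0 and 38.0 CPM, below every Organoid AKP library (-0.63 ± 0.17, adjusted p = 0.0070), and -0.46 ± 0.13 within letter E (adjusted p = 0.0067). Without replicate 3 of #ii the adjusted p over all libraries was 0.083.

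*Jag2*, the other Jagged ligand, lies on chr12:112871421-112893437 on the minus strand. Its means were 43.7 ± 3.98 CPM in In vivo AKP, 60.1 ± 10.98 in #v, 54.6 ± 10.7 in #iv, 51.9 ± 5.31 in #iii, 43.2 ± 0.852 in #ii, 45.0 ± 4.75 in #i, 49.3 ± 10.4 in Organoid AKP and 29.0 ± 8.76 in Control (SD, n = 6 or 3). The only neighbours that differed were #ii and Control at the low end (adjusted p = 0.0088). Organoid AKP libraries held 36.1 to 63.0 CPM with a median of 49.7, and Control libraries 20.3 to 40.7 with a median of 28.3.

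The *Jag2* ranges of those lines overlapped over all libraries and were apart within each letter. Organoid AKP E libraries held 36.1 to 44.2 CPM, against 20.3 to 22.2 in Control E libraries, and its F libraries 55.2 to 63.0, against 34.4 to 40.7 in Control F libraries. The log2 fold change was 0.74 ± 0.15 (adjusted p = 4.4e-05), 0.90 in E and 0.62 in F. Against Organoid AKP, *Jag2* was not called over all libraries in In vivo AKP (-0.19 ± 0.15, adjusted p = 0.33) or in any mini-colon line. It fell in In vivo AKP within letter F (-0.32 ± 0.12, adjusted p = 0.030) and rose in #iii within letter E (0.35 ± 0.13, adjusted p = 0.049).

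*Dll1*, a Delta-like ligand of secretory precursor cells, was measured by only 2 to 17 counts per library. It lies on chr17:15587276-15597134 on the minus strand, and *Fam120b* overlaps it on the opposite strand with 5169 counts over the 33 libraries, against 263 for *Dll1*. The strand setting of the counting is not given in the sources used here, so reads from both genes may not be separable and the *Dll1* values are uncertain. Means were 0.958 ± 0.171 CPM in In vivo AKP, 1.44 ± 0.266 in #v, 2.04 ± 1.19 in #iv, 1.86 ± 0.225 in #iii, 1.30 ± 0.652 in #ii, 2.61 ± 1.02 in #i, 2.27 ± 0.947 in Organoid AKP and 2.47 ± 0.987 in Control (SD, n = 6 or 3).

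In vivo AKP libraries held 0.712 to 1.15 CPM of *Dll1* with a median of 0.996, and Organoid AKP libraries 1.38 to 3.78 with a median of 1.99. The ranges did not overlap and the log2 fold change was -1.14 ± 0.34 (adjusted p = 0.0092). Within letter F it was -0.56 ± 0.52 and not called (adjusted p = 0.39), and within letter E -1.66 ± 0.49 (adjusted p = 0.0084). The difference between letters was not called either (adjusted p = 0.29). None of the other 8 comparisons between lines called *Dll1* over all libraries.

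*Hes1*, the repressor that carries the signal to the cell fate genes, was not called in any of the 9 comparisons over all libraries. It lies on chr16:29882134-29886643 on the plus strand, and its window with the RBPJ-type sequence is shown above. Means were 286 ± 137 CPM in In vivo AKP, 203 ± 16.7 in #v, 184 ± 19.9 in #iv, 216 ± 18.6 in #iii, 290.4 ± 24.8 in #ii, 247 ± 12.9 in #i, 284 ± 39.1 in Organoid AKP and 286 ± 26.9 in Control (SD, n = 6 or 3). Among all 28 pairs of lines 1 was called, #iv against Control (log2 fold change -0.64 ± 0.24, adjusted p = 0.023), and no neighbours in the order of means differed (adjusted p 0.61 to 0.99).

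The wide SD of *Hes1* in In vivo AKP went with the letter. Its F libraries held 432, 449 and 327 CPM and its E libraries 139, 151 and 216, a log2 difference of 1.25 ± 0.12 (adjusted p = 3.0e-10). In Organoid AKP the F libraries held 330.4, 312 and 317 CPM and the E libraries 245, 253 and 249 (0.36 ± 0.12, adjusted p = 0.023). In Control the letters overlapped (-0.06 ± 0.12, adjusted p = 0.78).

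*Hes1* was higher in In vivo AKP than in Organoid AKP within letter F (log2 fold change 0.35 ± 0.09, adjusted p = 0.0023) and lower within letter E (-0.54 ± 0.11, adjusted p = 0.00038), and over all libraries it was 0.00 ± 0.19. The difference of F minus E was called (0.90 ± 0.17, adjusted p = 0.00021). What the letter stands for was not tested. Within letter F *Hes1* fell by 0.64 ± 0.09 in #v (187, 202 and 220 CPM, adjusted p = 3.4e-06) and by 0.79 ± 0.10 in #iv (205, 182 and 165 CPM, adjusted p = 3.8e-07) on the log2 scale, all 6 libraries lying below every Organoid AKP library. Within letter E the 3 other mini-colon lines were not called (adjusted p 0.16 to 1.0). Against Control, *Hes1* in Organoid AKP was lower within letter E (-0.26 ± 0.11, adjusted p = 0.049) and not called within letter F (0.14 ± 0.09, adjusted p = 0.18).

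*Hes6*, a HES family member known to oppose HES1, lies on chr1:91339204-91342103 on the minus strand. Means were 197 ± 93.5 CPM in In vivo AKP, 182 ± 11.3 in #v, 112 ± 5.85 in #iv, 85.3 ± 1.84 in #iii, 77.0 ± 11.2 in #ii, 84.7 ± 8.39 in #i, 122 ± 15.9 in Organoid AKP and 73.7 ± 15.2 in Control (SD, n = 6 or 3). No neighbours in the order of means were called (adjusted p 0.12 to 1.0). Organoid AKP libraries held 107 to 146 CPM with a median of 118, above all Control libraries, which held 57.9 to 90.5 with a median of 74.7.

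The log2 fold change of *Hes6* in Organoid AKP against Control was 0.71 ± 0.20 (adjusted p = 0.0023). It was 0.33 ± 0.08 within letter F and 1.08 ± 0.12 within letter E, and the difference of F minus E was called (-0.73 ± 0.15, adjusted p = 0.00040). Control was the line whose letters differed, with 85.7 to 90.5 CPM in F and 57.9 to 63.7 in E (0.54 ± 0.11, adjusted p = 0.00021), whereas Organoid AKP was not called (-0.19 ± 0.10, adjusted p = 0.15).

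In vivo AKP held 251, 265 and 322 CPM of *Hes6* in its F libraries and 125, 111 and 109 in its E libraries, and Organoid AKP 107, 114 and 122 in F and 107, 136 and 146 in E. The rise in In vivo AKP over all libraries (log2 fold change 0.69 ± 0.20, adjusted p = 0.0065) was carried by letter F, where it was 1.31 ± 0.08 (adjusted p = 5.7e-19). Within letter E it was -0.16 ± 0.11 and not called (adjusted p = 0.30). The difference of F minus E was called (1.47 ± 0.14, adjusted p = 3.0e-12).

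In #v *Hes6* was at 174, 195 and 177 CPM, above every Organoid AKP library. Over all libraries the log2 fold change against Organoid AKP was 0.58 ± 0.23 and not called (adjusted p = 0.12), and within letter F it was 0.68 ± 0.08 (adjusted p = 5.1e-09). Against #i (91.2, 87.6 and 75.2 CPM) it was 2.14-fold higher (1.10 ± 0.28, adjusted p = 0.0062), and 0.54 ± 0.26 with the letter in the model (adjusted p = 0.22). The second value borrows the letter difference of other lines, which was unequal for *Hes6*, so it cannot separate line from letter. Against #iv (111, 107 and 118 CPM), which shares the letter of #v, the log2 fold change of *Hes6* was 0.70 ± 0.28 over all libraries and not called (adjusted p = 0.18). The same difference had a smaller error within letter F (0.70 ± 0.09, adjusted p = 2.0e-08), and the libraries did not overlap. In the 3 E lines *Hes6* fell within letter E, by 0.62 ± 0.11 in #iii, by 0.74 ± 0.11 in #ii and by 0.61 ± 0.11 in #i on the log2 scale (adjusted p 6.9e-05, 2.0e-06 and 0.00025), though none of these was called over all libraries.

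*Nrarp* is a Notch target whose product damps the signal, on chr2:25070770-25073351 on the plus strand. Means were 10.47 ± 2.66 CPM in In vivo AKP, 26.1 ± 0.502 in #v, 22.9 ± 2.71 in #iv, 18.7 ± 3.49 in #iii, 15.6 ± 3.47 in #ii, 19.6 ± 3.05 in #i, 21.97 ± 4.11 in Organoid AKP and 20.5 ± 3.66 in Control (SD, n = 6 or 3). In the order of means only the lowest pair differed, #ii and In vivo AKP (adjusted p = 0.016). Organoid AKP and Control overlapped (log2 fold change 0.11 ± 0.15, adjusted p = 0.51).

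In vivo AKP libraries held 7.83 to 14.4 CPM of *Nrarp* with a median of 9.67, all below the Organoid AKP libraries, which held 15.1 to 27.0 with a median of 22.4. *Nrarp* fell in In vivo AKP by 1.10 ± 0.16 on the log2 scale (adjusted p = 8.3e-07), to 0.465 of the Organoid AKP level. The value was -0.99 ± 0.15 within letter F (adjusted p = 3.9e-07) and -1.17 ± 0.21 within letter E (adjusted p = 2.6e-05), and the difference between the letters was not called (adjusted p = 0.68). In #ii (18.1, 17.1 and 11.6 CPM) the fall over all libraries (-0.53 ± 0.19, adjusted p = 0.041) was not called within letter E (-0.31 ± 0.20, adjusted p = 0.29).

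*Lfng* encodes Lunatic fringe, which adds sugars to Notch receptors and so shifts which ligands they answer to, and lies on chr5:140593075-140601300 on the plus strand. Means were 18.4 ± 5.54 CPM in In vivo AKP, 11.6 ± 0.776 in #v, 5.45 ± 0.498 in #iv, 6.79 ± 1.57 in #iii, 4.76 ± 0.2502 in #ii, 5.75 ± 2.08 in #i, 9.03 ± 2.30 in Organoid AKP and 2.98 ± 0.988 in Control (SD, n = 6 or 3). The order ran In vivo AKP, #v, Organoid AKP, #iii, #i, #iv, #ii and Control. Its first and its last pair differed, In vivo AKP from #v (adjusted p = 0.034) and #ii from Control (adjusted p = 0.036), and the pairs between did not.

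In vivo AKP libraries held 13.3 to 28.8 CPM of *Lfng* with a median of 17.4, Organoid AKP libraries 6.13 to 12.7 with a median of 8.84, and Control libraries 1.41 to 3.97 with a median of 3.43. The 3 lines did not overlap. *Lfng* was 2.04-fold higher in In vivo AKP than in Organoid AKP (log2 fold change 1.03 ± 0.20, adjusted p = 8.2e-05), with 0.77 within letter E and 1.28 within letter F, both called. It was 3.10-fold higher in Organoid AKP than in Control (1.63 ± 0.24, adjusted p = 2.7e-07), with 1.46 and 1.63 within the letters, both called.

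Among the mini-colon lines #v held 12.03, 12.09 and 10.7 CPM of *Lfng*, above all libraries of the other 4 lines, which held 3.50 to 7.72. Against #iv the log2 fold change was 1.08 ± 0.30 (adjusted p = 0.041), and 1.07 ± 0.29 within letter F (adjusted p = 0.0081). Leaving out any 1 of the 6 libraries of those lines took the value over all libraries past the threshold (adjusted p 0.082 to 0.16). Against #i it was 1.01 ± 0.31 (adjusted p = 0.017), and 1.003 ± 0.34 with the letter in the model (adjusted p = 0.059). Without replicate 2 of #i, which held 3.50 CPM, it was 0.75 (adjusted p = 0.11). In #ii, at 4.88, 4.47 and 4.92 CPM, *Lfng* fell against Organoid AKP (-0.91 ± 0.28, adjusted p = 0.016), also within letter E (-1.02 ± 0.28, adjusted p = 0.0052), and leaving out any 1 of the 3 #ii libraries took the value over all libraries to an adjusted p of 0.053 to 0.066.

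Over the 33 libraries, *Hes6* and *Lfng* had the closest patterns of any pair of members (Pearson r of log2 CPM 0.77, and 0.91 over the 8 line means), followed by *Jag1* and *Jag2* (0.69 and 0.84). The points share lines and letters, so these values only describe the libraries. By the same measure over 33 libraries, the non-member genes most like *Jag1* were *Samd5* (0.90), *Itga6* (0.89) and *Raet1e* (0.88). Those most like *Lfng* were *Slc30a2* (0.91), *Cd244a* (0.91) and *Dach1* (0.90), and those most like *Hes6* were *Marcksl1* (0.93), *Sypl1* (0.91) and *H2az2* (0.90).

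The wider pathway was read from a list of 46 other Notch genes, of which 34 passed the filter and 12 did not. Of those 12, *Dlk1*, *Dtx1* and *Hes3* were at 0 in every library, and the other canonical target genes *Hes5*, *Hey1*, *Hey2* and *Heyl* did not exceed 1.15 CPM in any. In Organoid AKP against Control 11 of the 34 rose and 14 fell, 73.5% against 71.0% of all genes. Their median log2 fold change was -0.21, beside 0.06 over all genes.

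*Rbpj*, the DNA-binding partner of the cut receptor, was at 66.0 to 125 CPM in Organoid AKP and 26.6 to 29.5 CPM in Control, without overlap (log2 fold change 1.74 ± 0.13, adjusted p = 8.5e-14). *Fbxw7*, part of a ubiquitin ligase that removes active Notch, rose by 0.85 ± 0.07, and *Snw1*, whose product binds RBPJ complexes, rose by 0.53 ± 0.09 on the log2 scale. The largest fall by p was that of *Neurl1b*, a ubiquitin ligase that acts on ligands, at 123 to 194 CPM in Organoid AKP against 761 to 1054 CPM in Control (-2.46 ± 0.15, adjusted p = 1.1e-15). *Aph1a*, which encodes a subunit of the γ-secretase that cuts the receptor, fell by 1.34 ± 0.13, and *Dtx3l*, a Deltex family ligase, by 0.83 ± 0.08 on the log2 scale.

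In vivo AKP against Organoid AKP called fewer of these genes, 5 higher and 1 lower of 34, or 17.6% against 34.4% of all genes. *Neurl1a*, another ligase of the neuralized family, was at 11.9 to 25.1 CPM in In vivo AKP and 3.11 to 6.86 CPM in Organoid AKP (log2 fold change 1.55 ± 0.20, adjusted p = 2.1e-07). *Neurl3* rose by 0.98 ± 0.17, the γ-secretase subunit gene *Aph1b* by 1.25 ± 0.28 and *Dtx3l* by 0.49 ± 0.08 on the log2 scale. *Maml1*, a coactivator of the RBPJ complex, fell by 0.60 ± 0.15 (adjusted p = 0.0024). *Rbpj* was at 61.5 to 93.0 CPM in In vivo AKP, against 66.0 to 125 CPM in Organoid AKP, and was not called over all libraries (-0.28 ± 0.12, adjusted p = 0.078).

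**Figure D4:**
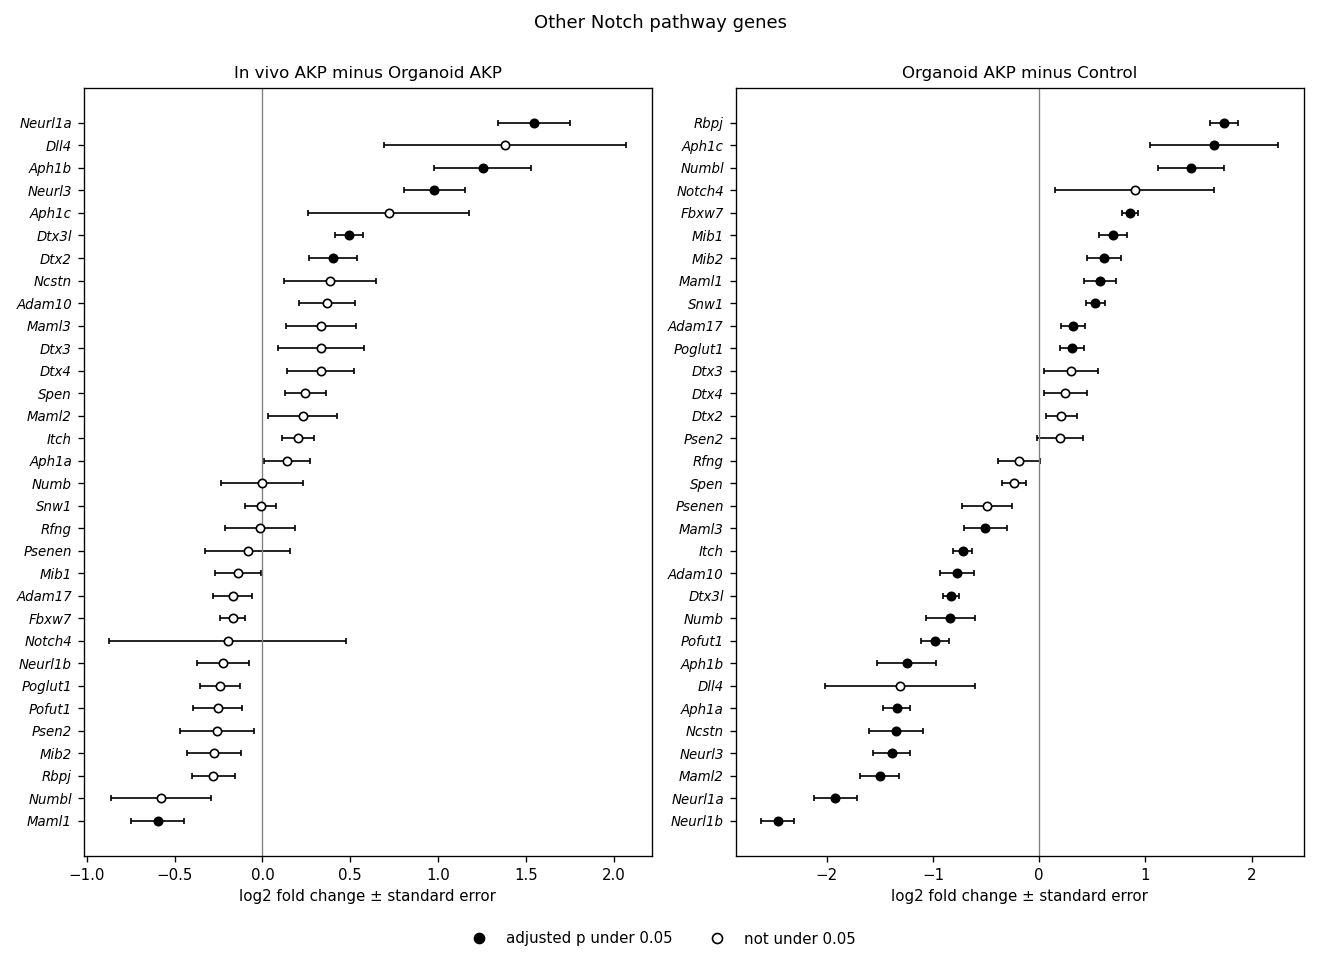
Log2 fold change (x axis) with its standard error for 32 of the other Notch pathway genes that passed the filter, ordered by value, in In vivo AKP minus Organoid AKP and in Organoid AKP minus Control, with filled circles for an adjusted p under 0.05. *Rbpj* stands highest, at 1.74, and *Neurl1b* lowest, at -2.46, in Organoid AKP minus Control.

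Among the mini-colon lines 2 of these 34 genes were called in #v against Organoid AKP (5.88% against 10.6% of all genes), 2 in #iv (5.88% against 4.90%), 4 in #iii (11.8% against 16.2%), 9 in #ii (26.5% against 24.6%) and 2 in #i (5.88% against 7.15%), shares near or below those of all genes. *Neurl1a* was higher in #v (log2 fold change 0.96 ± 0.24), #iii (0.82 ± 0.26) and #ii (1.11 ± 0.25), and *Dtx3l* in #iv (0.33 ± 0.10) and #ii (0.74 ± 0.09). *Aph1b* was lower in #iii, #ii and #i, at 0.492 to 2.04 CPM in those 9 libraries and 2.16 to 6.02 CPM in Organoid AKP. *Neurl1b* fell by 1.20 ± 0.19 in #ii and by 0.66 ± 0.19 in #i, *Numbl*, which encodes a relative of the Notch inhibitor Numb, by 1.59 ± 0.41 in #iii, and *Itch*, a ubiquitin ligase, by 0.36 ± 0.11 in #v on the log2 scale. *Aph1a* rose by 0.52 ± 0.16 in #iv.

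Against #i, 6 of the 34 were higher in #v and 3 lower, 26.5% against 24.5% of all genes, with line and letter joined. *Dtx3* was at 5.72 to 8.02 CPM in #v and 2.34 to 2.92 CPM in #i (log2 fold change 1.46 ± 0.39), and *Neurl1a*, *Dtx3l* and *Neurl1b* rose by 0.98 ± 0.31, 0.34 ± 0.11 and 0.63 ± 0.21. *Itch* (-0.40 ± 0.13) and the ligand ligase gene *Mib2* (-0.62 ± 0.22) were among those lower. Against #iv only *Fbxw7* was called, lower in #v by a log2 fold change of -0.38 ± 0.10 (adjusted p = 0.028).

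Secretory lineage genes, which Notch signalling holds back in the normal gut, were followed with a list of 22, of which 16 passed the filter. In Organoid AKP against Control 4 rose and 6 fell, 62.5% against 71.0% of all genes. The mucus-associated gene *Fcgbp* was at 3.45 to 10.7 CPM in Organoid AKP against 507 to 778 CPM in Control (log2 fold change -6.56 ± 0.23, adjusted p = 5.3e-22). The goblet cell gene *Clca1* was at 0 to 0.809 CPM in Organoid AKP, against 4.69 to 21.5 CPM in Control. *Zg16*, another, was at 0 in all 6 Organoid AKP libraries, which allows up to 0.107 CPM over the line, against 2.65 to 14.6 CPM in Control. The forkhead gene *Foxa1* fell by 0.85 ± 0.16, while its relative *Foxa3* was at 6.90 to 19.2 CPM in Organoid AKP against 0 to 0.700 CPM in Control. *Reg4*, at 3.22 to 145 CPM against 0 to 2.80, and *Dclk1*, a tuft cell marker at 0.325 to 2.16 CPM against 0 to 0.176, were also called higher. *Agr2* was called higher over all libraries, but in opposite directions within the letters. It was lower within F, at 2.31 to 3.80 CPM in Organoid AKP against 4.06 to 6.16 CPM in Control, and higher within E, at 17.3 to 24.9 CPM against 5.25 to 8.44 CPM.

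In In vivo AKP 7 of the 16 were higher than in Organoid AKP and 0 lower, 43.8% against 34.4% of all genes, with a median log2 fold change of 1.01, beside 0.00. *Foxa3* was at 53.8 to 122 CPM in In vivo AKP and 6.90 to 19.2 CPM in Organoid AKP (2.76 ± 0.20, adjusted p = 3.2e-13). *Spink4*, a goblet cell gene, was at 6.80 to 11.9 against 0 to 5.20 CPM, *Chgb*, an enteroendocrine gene, at 0.800 to 17.9 against 0.173 to 1.95 CPM, and *Sox4* rose by 1.001 ± 0.22. The count moved with the letter: 4 of 16 were higher and 1 lower within E, against 27.2% of all genes, and 13 of 16 were higher within F, against 49.2%, the letter in which *Hes6* was high in In vivo AKP.

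Mini-colon AKP #v had more of these genes called higher than the other mini-colon lines had. Against Organoid AKP 5 of the 16 were higher and 0 lower, 31.2% against 10.6% of all genes. *Foxa3* was at 33.6 to 36.4 CPM in #v and 6.90 to 19.2 CPM in Organoid AKP (1.54 ± 0.23, adjusted p = 1.7e-05), and *Foxa1* rose by 0.84 ± 0.19. Within letter F 10 of 16 were higher and 0 lower, against 27.2% of all genes. Against #iv, of the same letter, 6 of 16 were higher and 0 lower, 37.5% against 3.15% of all genes. *Atoh1* was at 2.17 to 3.15 CPM in #v and 0 to 0.310 CPM in #iv (adjusted p = 0.016), low levels in both, and *Foxa3* rose by 1.19 ± 0.28. *Hes1*, whose product represses *Atoh1*, was not called between these lines (log2 fold change 0.15 ± 0.27, adjusted p = 0.87).

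Against #i, 6 of the 16 secretory genes were higher in #v and 1 lower, 43.8% against 24.5% of all genes. *Foxa3* (1.87 ± 0.30), *Foxa1* (1.15 ± 0.23) and *Sox4* (1.33 ± 0.32) were higher, and *Atoh1* was at 2.17 to 3.15 CPM in #v and 0 to 0.877 CPM in #i. *Chgb* was at 0 to 0.238 CPM in #v and 2.34 to 2.38 CPM in #i. In the other mini-colon lines few were called against Organoid AKP: *Fcgbp* was lower in #iv and, with *Reg4*, in #ii, *Sox4* was lower in #iii, and 0 were called in #i. These were 1 of 16 in #iv (6.25% against 4.90% of all genes), 1 in #iii (6.25% against 16.2%), 2 in #ii (12.5% against 24.6%) and 0 in #i (against 7.15%). Within letter F 2 of 16 were higher and 1 lower in #iv, 18.8% against 12.7%. Within letter E only lower genes were called, 3 of 16 in #iii (18.8% against 15.6%), 6 in #ii (37.5% against 22.9%) and 3 in #i (18.8% against 7.70%).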

How the data were processed

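Per the paper and the labels, the authors made 3′ libraries from polyA RNA with QuantSeq, aligned reads to GRCm39 with STAR, and used edgeR and limma in R 4.1.2. The deposited files hold raw counts per Ensembl gene for 33 libraries. The annotation, the counting tool and its strand setting are not given in the sources used here. Of 32285 identifiers, 611 had no matching name in GENCODE M39 and held 6.85% of counts. Members were found by name. The members and gene lists were chosen with earlier results of these data known.

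The filter kept the 13606 genes that reached 1 CPM in 3 or more libraries. Counts were scaled by TMM and fitted with the robust edgeR quasi-likelihood test (edgeR 4.0.16, R 4.3.3), with 1 coefficient per line over all 33 libraries and Benjamini-Hochberg adjustment over all genes tested. The same model was fitted within each letter. A line-by-letter model, added after the data were seen, tested whether effects differed between letters. Alternatives were DESeq2 1.42.0, limma-voom (limma 3.58.1), median-of-ratios size factors, no filter, the letter or the replicate number as a term, only the lines compared, and each library left out. The fit was tested on simulated data. Total counts lay between 2438672 and 8256526 (median 3748649). Limits from a count of 0 use 3 counts and cover counting error only. CPM in the text are TMM-scaled, with no pseudocount.

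All 10 members were described. From the other Notch and secretory lists, up to 4 genes per direction with the smallest p among those called were named in In vivo AKP against Organoid AKP, Organoid AKP against Control and #v against #i, and up to 2 in the other comparisons. Some items that the rule or the design would name are not reported here. Genes most like *Jag1*, *Lfng* and *Hes6* were the 3 with the highest Pearson r. The replicate numbers were not treated as pairs, because correlations of same-numbered libraries were low once line and letter were removed.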

Additional observations from a re-analysis of the deposited data

Results flagged for a closer look

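For 5 results the effect within letter F differed from that within letter E, by the test of the difference itself in one model of all 33 libraries (edgeR, adjusted over all 13606 genes). In In vivo AKP against Organoid AKP the log2 effect was greater in F than in E by 1.47 for *Hes6* (adjusted p = 3.0e-12), by 0.90 for *Hes1* (adjusted p = 0.00021) and by 0.53 for *Jag1* (adjusted p = 0.0099), while 20.8% of all genes had such a difference. For *Hes1* the effect changed direction between the letters, and for *Jag1* it was a fall in each. In Organoid AKP against Control the difference in log2 effect was -0.73 for *Hes6* (adjusted p = 0.00040) and 1.12 for *Notch3* (adjusted p = 0.047), while 13.9% of all genes had one. *Hes6* rose and *Notch3* fell in each letter there.

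Letter F was the higher one for every member called between the letters of a line, which were 7 members in In vivo AKP, 5 in Organoid AKP and 2 in Control, beside 47.2%, 30.4% and 22.2% of all genes called in either direction. These shares are not split by direction, so the direction is not shown to be particular to the members. What the letter stands for is not given, and its part in these results was not tested. None of the 30 groups of 6 libraries held a single library set apart from the others by Dixon's criterion, which chance would meet in about 1 of 20 groups. Each group joins E and F libraries of In vivo AKP, Organoid AKP or Control. Where the letters differ, a single library can hardly be set apart, so the criterion cannot check those groups. The mini-colon lines were not covered.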

How the results depend on the processing

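In Organoid AKP against Control the same 6 members were called under every setting, with *Hes1* added within letter E. In In vivo AKP against Organoid AKP (5 members) 5 to 7 were called, and which ones depended on the setting: letter F lost *Dll1* and gained *Hes1*, *Jag2* and *Notch3*, letter E lost *Hes6* and gained *Hes1* and *Notch3*, and limma-voom, the letter in the model, the replicate block and leaving out any of 3 single libraries (In vivo AKP replicate 4, Organoid AKP replicates 1 and 3) added *Notch3*. Within letter E alone *Hes1* was -0.54 (adjusted p = 0.00038) and *Hes6* -0.16 (adjusted p = 0.30) in In vivo AKP against Organoid AKP, each with the opposite sign to the value over all libraries. The 1540 member values under alternatives comprised 1445 on the same side of the threshold, of which 88 changed sign without being called under either setting, 40 that lost and 53 that gained a call in the same direction, and these 2 that changed sign with a call.

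In the smaller comparisons the count depended on the setting. With the letter in the model 0 members were called in #i (490 genes in all), 3 in #iv, 2 in #v, and 0 in #v against #i (1264 genes), and the genes called were 1420 in #iii and 1024 in #v against #iv. That term takes the letter difference as equal in every line, which did not hold for *Hes6* or *Notch3*. The counts against Organoid AKP and #i therefore cannot separate line from letter. Within letter F alone 3 members were called in #iv (1726 genes) and 3 in #v (3701 genes), and 2508 genes in #v against #iv. With only the lines compared in the model 2 members were called in #i, 5 in #iii, 2 in #iv, 2 in #v, and 8 in #v against #i (5997 genes), and 3113 genes in #v against #iv. limma-voom and the unfiltered fit each called 1 in #v against #iv. Among the 5 mini-colon lines 2 members were called within E (3371 genes) and 3 within F (2508 genes), and 4023 genes with the letter in the model, against 6 members and 6349 genes.

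With the replicate block 0 members were called in #i (387 genes), 5 in #iv (3259 genes), 4 in #v (3938 genes) and 5 in #v against #i, and the genes called were 1203 in #iii and 803 in #v against #iv. With the line mean removed, same-numbered libraries correlated at 0.070 to 0.375 in In vivo AKP and Organoid AKP and at 0.074 to 0.203 in Organoid AKP and Control. These values still hold the letter. With line and letter removed they were -0.027 to 0.045 and -0.041 to 0.041. The highest were 0.065 to 0.132, in #ii and Organoid AKP. The numbers were not taken as pairs. Replicates 1 to 3 are letter F in #iv and #v and letter E in every other line. The block therefore sets #iv and #v beside E libraries of the other lines, so line and letter are joined there. It called *Notch2*, *Jag1* and *Jag2* higher than in Organoid AKP in both lines, and none of them was called there within letter F. The cause of the differing counts was not tested.

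With each library left out in turn, the members called were 5 to 6 in In vivo AKP, 6 in Organoid AKP against Control, 0 to 1 in #i, 2 to 6 in #ii, 1 to 3 in #iii, 1 in #iv, 0 in #v, 1 to 3 in #v against #i, 0 to 1 in #v against #iv, 9 to 10 over the 8 lines and 5 to 6 over the mini-colon lines. *Notch3* in In vivo AKP against Organoid AKP gained a call without In vivo AKP replicate 4 (adjusted p = 0.012) or Organoid AKP replicate 1 (0.046) or 3 (0.036). *Notch3* in #iii lost its call without replicate 1 of #iii (adjusted p = 0.054), and *Nrarp* in #ii lost its call in 6 of 9 omissions (replicate 2 or 3 of #ii, or 2, 4, 5 or 6 of Organoid AKP). Genes called ranged from 230 to 1719 in #i, 2010 to 3792 in #ii, 970 to 2605 in #iii, 309 to 717 in #iv, 692 to 1386 in #v, 2023 to 2329 in #v against #i and 140 to 279 in #v against #iv. Depth limits *Dll1* (2 to 17 counts per library) and *Notch3* (2 to 114) most, and counts were also low for *Notch1* (7 to 90) and *Lfng* (9 to 132).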

Other observations

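Of 8 absorptive and progenitor genes, 7 passed the filter, and the stem cell gene *Olfm4* was at 0 in 32 libraries. In Organoid AKP against Control 5 rose and 2 fell, beside 71.0% of all genes called. *Sox9*, a crypt progenitor factor, was at 758.8 to 943 CPM in Organoid AKP and 67.1 to 110.1 CPM in Control. *Ascl2*, a stem cell factor, was at 38.1 to 61.1 CPM in Organoid AKP and 0 to 0.882 CPM in Control. *Klf4*, a differentiation factor that Notch signalling represses in the gut, was at 491 to 569.9 CPM in Organoid AKP and 682 to 1239 CPM in Control (log2 fold change -0.84 ± 0.11, adjusted p = 5.0e-08, edgeR). In In vivo AKP against Organoid AKP the cell cycle inhibitor genes *Cdkn1c* (2.54 ± 0.16) and *Cdkn1b* (0.63 ± 0.12) rose and *Klf4* fell (-0.64 ± 0.11), 3 of 7 beside 34.4% of all genes.

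Over the 8 line means *Jag1* and *Hes1* had a Pearson r of -0.75, and over the 33 libraries -0.12, so that the description changes with whether lines or libraries are counted.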
